A study of Mus musculus with 6 samples.

Results

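The genes described here are 9 members of the ADAM family and ADAMTS1, taken by name from the annotated expression table: ADAM8, ADAM9, ADAM10, ADAM12, ADAM15, ADAM17, ADAM19, ADAM28, ADAMDEC1 and ADAMTS1. All 10 were found among the 20036 genes of the table, and all 10 passed the filter on low counts that kept 12029 genes for testing. ADAM12 passed it only through its control libraries. RNA sequencing was done on macrophages derived from THP-1, a cell line of human monocytic leukaemia, with 3 melittin libraries and 3 control libraries (named NC). In the melittin group, per the design text, THP-1 cells below a Transwell membrane were given 100 ng/ml of the phorbol ester PMA over 48 h. Tumour cells were then added above the membrane, and both were kept for 48 h with 3 µg/ml of melittin, the lytic peptide of bee venom. What the control wells received, and whether they held tumour cells, is not stated, so melittin and the co-culture cannot be told apart, and PMA is read as common to both groups. The organism label reads mouse, while the gene identifiers and the genome build (GRCh38) are human.

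ADAM proteins are zinc metalloproteases, most of them anchored in the plasma membrane, where they cut the extracellular part off other membrane proteins. This shedding releases cytokines such as TNF and growth factors of the EGF family, and it removes receptors from the cell surface. In macrophages ADAM17 and ADAM10 are the best known sheddases. ADAMDEC1 is a soluble relative, known from macrophages and dendritic cells of the gut, and ADAMTS1 is secreted and acts on proteoglycans of the extracellular matrix. All 10 genes carry the Gene Ontology term for metalloendopeptidase activity in the table, a term held by 126 genes. Of the 10, 8 carry the term for the plasma membrane, all but ADAMDEC1 and ADAMTS1, and 4 (ADAM9, ADAM10, ADAM17 and ADAM19) carry that for ectodomain proteolysis of membrane proteins, a term held by 23 genes.

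Total counts were 16192032 to 19521897 in the melittin libraries and 16001423 to 19597781 in the control libraries. The 10 genes together took 0.118% of the counts in each melittin library and 0.176 to 0.177% in the control libraries. Of 11 macrophage markers, 9 reached 1 CPM (counts relative to the library's total, scaled with TMM factors) in at least 1 library, while CD68 and MRC1 were at or near 0, and the summed level of the list was 3117 to 3215 CPM with melittin and 4013 to 4039 CPM in controls. ITGB2 made up most of that sum, at 2309 CPM with melittin and 2627 CPM in controls. The markers went both ways, with 5 lower (CSF1R, CD163, CD14, LYZ and ITGB2) and 3 higher (FCGR2A, ITGAM and TYROBP). FCGR2A rose 11.7-fold and ITGAM 2.48-fold with melittin. Epithelial markers, which tumour cells could bring, summed to 0.325 to 1.48 CPM with melittin and 0.330 to 0.394 CPM in controls, with 5 of 8 at 0 in every library. Lymphocyte markers summed to at most 1.07 CPM with melittin and 0.541 CPM in controls. Fibroblast markers, mostly COL1A1, summed to 26.9 to 29.1 CPM with melittin and 21.0 to 22.4 CPM in controls. Mitochondrial transcripts made up 2.08 to 2.34% of counts with melittin and 2.65 to 2.70% in controls. The part of these shifts in the results that follow was not tested.

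Transcripts of 7 of the 10 genes were lower with melittin, 0 were higher and 3 did not pass the test. ADAMTS1 fell the most, 7.64-fold, followed by ADAM28 (2.54-fold), ADAM19 (2.47-fold) and ADAM12 (2.14-fold). On the log2 scale ADAM17 fell by 0.43, ADAM9 by 0.38 and ADAMDEC1 by 0.16. ADAM10, ADAM15 and ADAM8 had log2 fold changes of 0.03, 0.05 and 0.34 and were not called. Of all tested genes, 38.3% were called lower, 38.1% higher and 76.4% in either direction (edgeR quasi-likelihood test, Benjamini-Hochberg adjusted p of 0.05). Over all tested genes, 4578 rose and 4612 fell, and scaling by total counts without TMM factors gave 3159 higher and 6244 lower. The 0 genes called higher were also 0 at an unadjusted p of 0.05, with DESeq2 and with limma-voom. The number was 1 after a correction for gene length (ADAM10). It was also 1 without control replicate 3, melittin replicate 2 or melittin replicate 3 (ADAM8 in each). The melittin and control values of 7 of the 10 genes did not overlap, against 77.4% of all tested genes, and 4 of the 10 were called at least 2-fold lower, against 9.96%. Against a fold change of 1.5 rather than 0, 3 of the 10 passed as lower (ADAMTS1, ADAM28 and ADAM19), against 14.4% of all tested genes. The median log2 fold change of the 10 genes was −0.41, against −0.007 over all tested genes. RNA was measured in bulk, so fewer cells with a transcript and less of it per cell cannot be told apart.

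**Figure D1:**
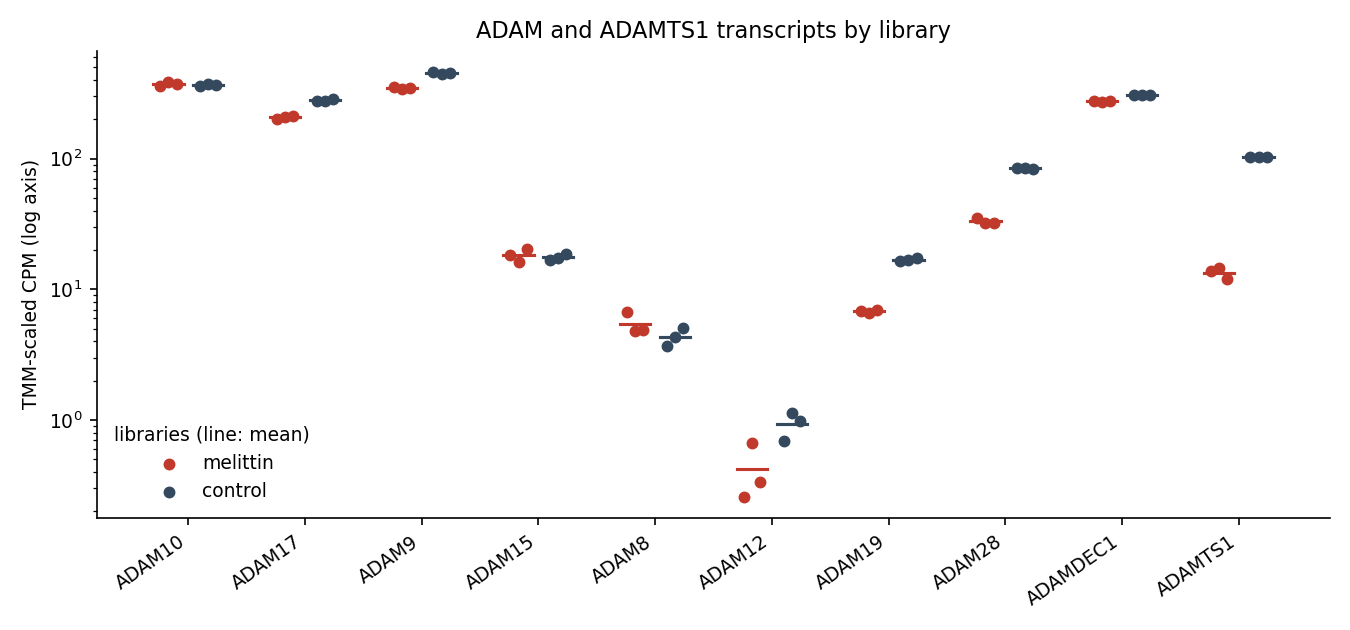
TMM-scaled CPM of each gene (log axis) in 3 melittin and 3 control libraries, with each group's mean as a line. Melittin points lie below the control points for ADAM17, ADAM9, ADAM12, ADAM19, ADAM28, ADAMDEC1 and ADAMTS1, and overlap them for ADAM10, ADAM15 and ADAM8.

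**Figure D2:**
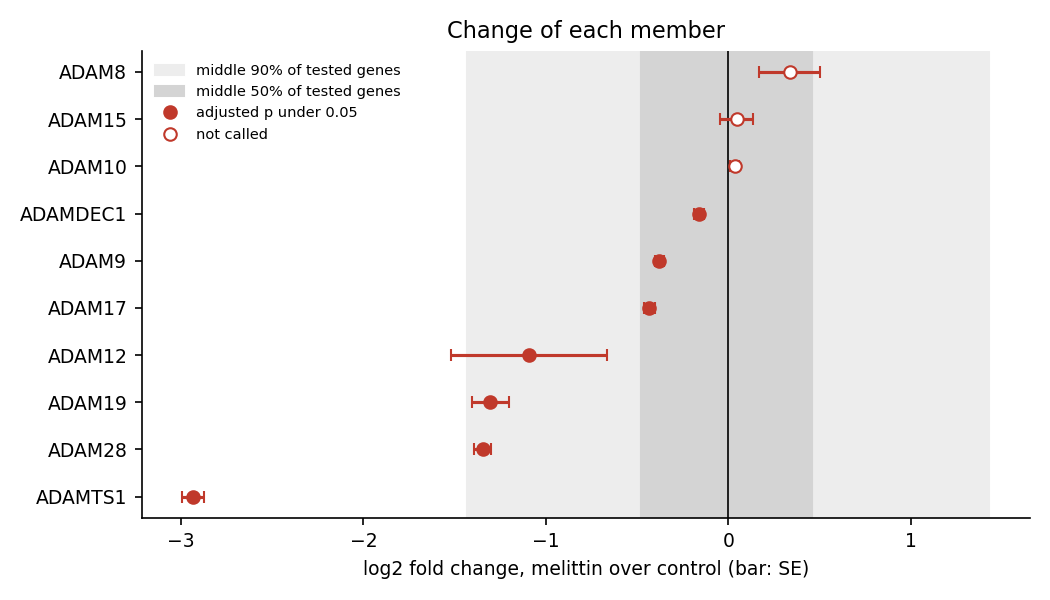
Log2 fold change of each gene, melittin over control, with its SE, over the range that holds the middle 50% (dark band) and the middle 90% (light band) of 12029 tested genes. ADAMTS1, at −2.93, lies outside the light band, while ADAM10, ADAM15, ADAM8, ADAM9, ADAM17 and ADAMDEC1 lie inside the dark band.

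ADAM10 (ENSG00000137845, chromosome 15, 58588809 to 58749791, minus strand, GRCh38) encodes the sheddase of Notch receptors, CD44, CXCL16 and many other membrane proteins. It measured 361, 384 and 371 CPM in melittin replicates 1 to 3, against 356, 369 and 367 CPM in control replicates 1 to 3. The groups overlapped, and the log2 fold change was 0.03 (SE 0.03, adjusted p = 0.273 by the edgeR quasi-likelihood test). Its direction depended on the scaling. Scaling by total counts without TMM factors moved the median of all genes to −0.238 and put ADAM10 at −0.20 (adjusted p = 1.58e-07), and a correction for gene length put it at 0.22 (adjusted p = 2.02e-08).

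ADAM17 (ENSG00000151694, chromosome 2, 9488486 to 9556732, minus strand) encodes TACE, the enzyme that frees TNF, TNF receptors and EGF family ligands from the membrane. It measured 202, 206 and 212 CPM in melittin libraries, against 274, 277 and 286 CPM in control libraries. Every melittin value lay under every control value, and the log2 fold change was −0.43 (SE 0.03, adjusted p = 1.19e-13). It missed the threshold when tested against 1.5-fold (adjusted p = 1). Under total-count scaling it was −0.66 and after the length correction −0.25, still called in each. ADAM17 overlaps IAH1 on the opposite strand, a gene at 22.7 ± 2.28 CPM with melittin and 8.70 ± 0.754 CPM in controls (SD, n = 3), and the strand setting of the counting is not known.

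The ratio of ADAM17 to ADAM10, in levels per kilobase, was 0.559, 0.538 and 0.570 in melittin libraries, against 0.771, 0.752 and 0.780 in control libraries. All 3 melittin ratios were below all 3 control ratios. A ratio within a library does not depend on how the library was scaled. With 3 libraries against 3 the smallest p of a two-sided exact permutation test is 0.1, so the ratios are given as a description.

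ADAM9 (ENSG00000168615, chromosome 8, 38996754 to 39105445, plus strand), a widely expressed membrane protease also known as meltrin gamma, measured 353, 341 and 346 CPM in melittin libraries, against 460, 443 and 448 CPM in control libraries. The groups were apart, and the log2 fold change was −0.38 (SE 0.03, adjusted p = 2.67e-13). Under total-count scaling it was −0.61 and after the length correction −0.19. The gene length used for levels per kilobase, which is shorter than the span of the coordinates, was 17704 bases for ADAM9, the longest of the 10. ADAM9 did not pass against 1.5-fold. It shares bases with TM2D2 on the opposite strand, which was at 37.9 ± 1.24 CPM with melittin and 46.0 ± 1.90 CPM in controls (SD, n = 3). ADAM9 and ADAM17 kept close to the same ratio, at 0.662 ± 0.024 with melittin and 0.688 ± 0.024 in controls, with overlapping values.

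ADAM15 (ENSG00000143537, chromosome 1, 155050566 to 155062775, plus strand), which can bind integrins through its disintegrin domain, measured 18.2, 16.2 and 20.5 CPM in melittin libraries, against 16.9, 17.4 and 18.8 CPM in control libraries. The melittin values spread around the control values, and the log2 fold change was 0.05 (SE 0.09, adjusted p = 0.653). Under total-count scaling it was −0.19 (adjusted p = 0.0606). ADAM15 overlaps DCST1 on the same strand, a gene with 0, 1 and 0 counts in melittin libraries and 0, 0 and 5 counts in control libraries.

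ADAM8 (ENSG00000151651, chromosome 10, 133262420 to 133276868, minus strand), a protease of leukocytes, measured 6.70, 4.84 and 4.89 CPM in melittin libraries, against 3.69, 4.29 and 5.09 CPM in control libraries. Melittin replicate 1 was the highest of the 6, with 103 counts, and the other melittin values lay under control replicate 3. The log2 fold change was 0.34 (SE 0.17, adjusted p = 0.0705). ADAM8 was called higher without control replicate 3 (0.45, adjusted p = 0.0342), without melittin replicate 2 (0.42, adjusted p = 0.0423) and without melittin replicate 3 (0.40, adjusted p = 0.0492). Under total-count scaling it was at 0.10, and without melittin replicate 1 at 0.17.

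ADAM19 (ENSG00000135074, chromosome 5, 157395534 to 157575775, minus strand) encodes meltrin beta, which can process neuregulin. It measured 6.83, 6.62 and 6.90 CPM in melittin libraries, against 16.3, 16.8 and 17.2 CPM in control libraries. The groups were apart, with a coefficient of variation of 2.14% with melittin and 2.63% in controls. At 105, 119 and 103 counts with melittin and 332, 356 and 298 in controls, these spreads are smaller than counting noise. They are therefore no measure of precision. The log2 fold change was −1.31 (SE 0.10, adjusted p = 3.70e-12). CYFIP2, which shares bases with ADAM19 on the opposite strand, went the other way, at 14.5 ± 1.49 CPM with melittin and 3.85 ± 0.311 CPM in controls (SD, n = 3, log2 fold change 1.91). Only reads from bases that belong to both genes cannot be told apart without strand, and how many there are was not examined.

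ADAM28 (ENSG00000042980, chromosome 8, 24294069 to 24359014, plus strand), a protease first described in lymphocytes, measured 34.99, 32.2 and 32.4 CPM in melittin libraries, against 85.0, 84.8 and 83.5 CPM in control libraries. Each melittin value was under each control value by a wide margin, and the log2 fold change was −1.35 (SE 0.05, adjusted p = 1.94e-19). Lymphocyte markers were near 0 in both groups, as given above, and the cell source of ADAM28 transcripts was not tested.

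ADAM12 (ENSG00000148848, chromosome 10, 126012381 to 126388477, minus strand), meltrin alpha, was the lowest of the 10, with 4, 12 and 5 counts in melittin libraries and 14, 24 and 17 counts in control libraries. That is 0.260, 0.668 and 0.335 CPM with melittin, against 0.689, 1.13 and 0.982 CPM in controls. Melittin replicate 2 lay just under control replicate 1. ADAM12 passed the filter on low counts only through its control libraries, which limits what its call can show. The log2 fold change was −1.10 (SE 0.43, adjusted p = 0.0226), and the call was lost with DESeq2 (adjusted p = 0.0644) and without control replicate 2 (0.107), control replicate 3 (0.0551), melittin replicate 1 (0.0983) or melittin replicate 3 (0.0785).

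ADAMDEC1 (ENSG00000134028, chromosome 8, 24384285 to 24406013, plus strand), decysin, measured 277, 272 and 276 CPM in melittin libraries, against 308, 308 and 308 CPM in control libraries. The control values lay within a coefficient of variation of 0.042%, and every melittin value was lower. At 6258, 6533 and 5327 control counts, that spread is smaller than counting noise and no measure of precision. The log2 fold change of −0.16 (SE 0.03, adjusted p = 2.34e-06) did not pass against 1.5-fold. Under total-count scaling it was −0.39 and after the length correction −0.34. By the gene length used for levels per kilobase, ADAMDEC1 is the shortest of the 10, at 2438 bases. ADAM28 lies 25271 bases before ADAMDEC1 on the same strand. Per kilobase the ratio of ADAM28 to ADAMDEC1 was 0.0329, 0.0308 and 0.0305 in melittin libraries, against 0.0718, 0.0716 and 0.0705 in control libraries, so these neighbours changed unequally. ADAM7, the next gene after ADAMDEC1, had 0 counts in every library.

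ADAMTS1 (ENSG00000154734, chromosome 21, 26835755 to 26845409, minus strand), a secreted protease that cuts versican and aggrecan, measured 13.8, 14.5 and 11.9 CPM in melittin libraries, against 102, 103 and 104 CPM in control libraries. In counts this was 212, 260 and 178 with melittin and 2076, 2181 and 1793 in controls. Each melittin value lay far below each control value. The log2 fold change was −2.93 (SE 0.06, adjusted p = 2.74e-25), between −3.16 and −2.86 in 16 alternatives, all called. Among 4612 genes called lower it held rank 71 by log2 fold change. Its neighbour ADAMTS5, another protease of aggrecan, lies 72513 bases away on the same strand and was named after its values were seen. ADAMTS5 had 0, 1 and 3 counts in melittin libraries, against 17, 36 and 24 counts in control libraries (adjusted p = 1.97e-06 by the edgeR quasi-likelihood test). It passed the filter on low counts only through its control libraries, so this p-value is not taken as support.

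**Figure D3:**
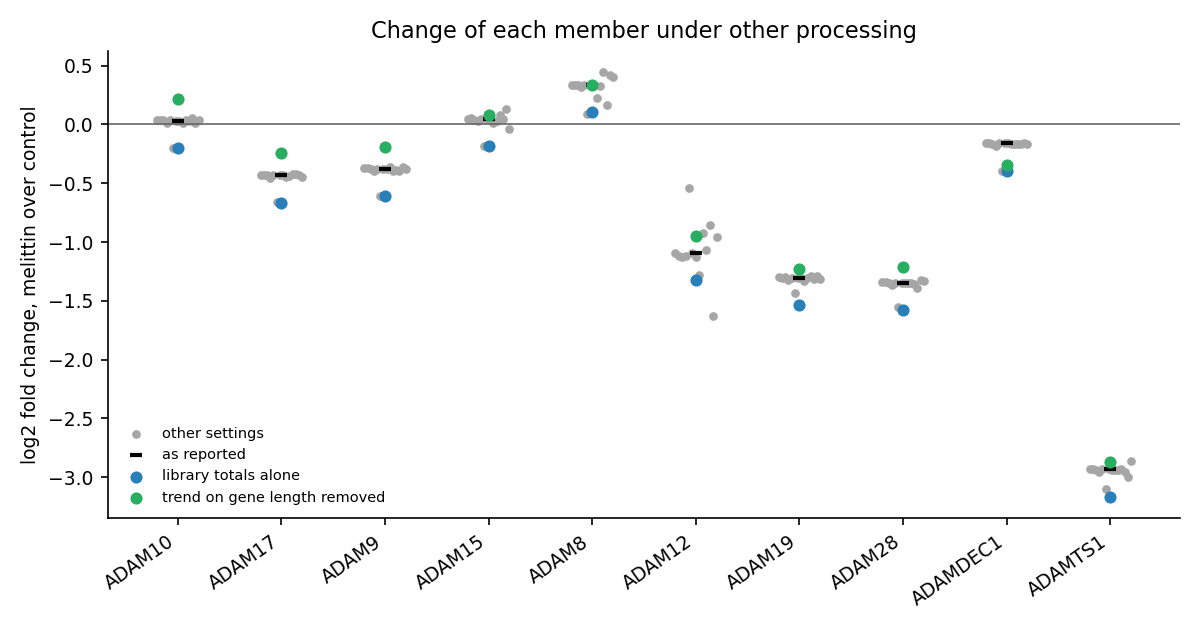
Log2 fold change of each gene, melittin over control, as reported (black) and under 16 other settings, 2 of them coloured. ADAM10 lies at −0.20 under total-count scaling and at 0.22 after the length correction, while ADAMTS1 lies between −3.16 and −2.86 in all of them.

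Levels were compared between genes only after division by the gene length in the table, as CPM per kilobase. ADAMDEC1 stood highest in both groups, at 112.8 ± 0.978 with melittin and 126.3 ± 0.053 in controls (SD, n = 3). With melittin it was followed by ADAM10 (23.3 ± 0.702), ADAM9 (19.6 ± 0.341), ADAM17 (12.9 ± 0.303), ADAM28 (3.54 ± 0.164), ADAM15 (2.78 ± 0.328), ADAMTS1 (1.83 ± 0.180), ADAM8 (1.15 ± 0.222), ADAM19 (0.881 ± 0.019) and ADAM12 (0.0426 ± 0.022). In controls the order was ADAM9 (25.4 ± 0.488), ADAM10 (22.8 ± 0.435), ADAM17 (17.5 ± 0.369), ADAMTS1 (14.1 ± 0.101), ADAM28 (9 ± 0.087), ADAM15 (2.69 ± 0.149), ADAM19 (2.18 ± 0.057), ADAM8 (0.914 ± 0.147) and ADAM12 (0.0945 ± 0.023). The order thus differed in the place of ADAM10 against ADAM9, of ADAMTS1 against ADAM28 and ADAM15, and of ADAM8 against ADAM19. No 2 neighbours in either order had overlapping values within a group. Without division by length ADAMDEC1 ranked 3 in both groups, under ADAM10 and ADAM9, and ADAM19 stood above ADAM8 with melittin as in controls.

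**Figure D4:**
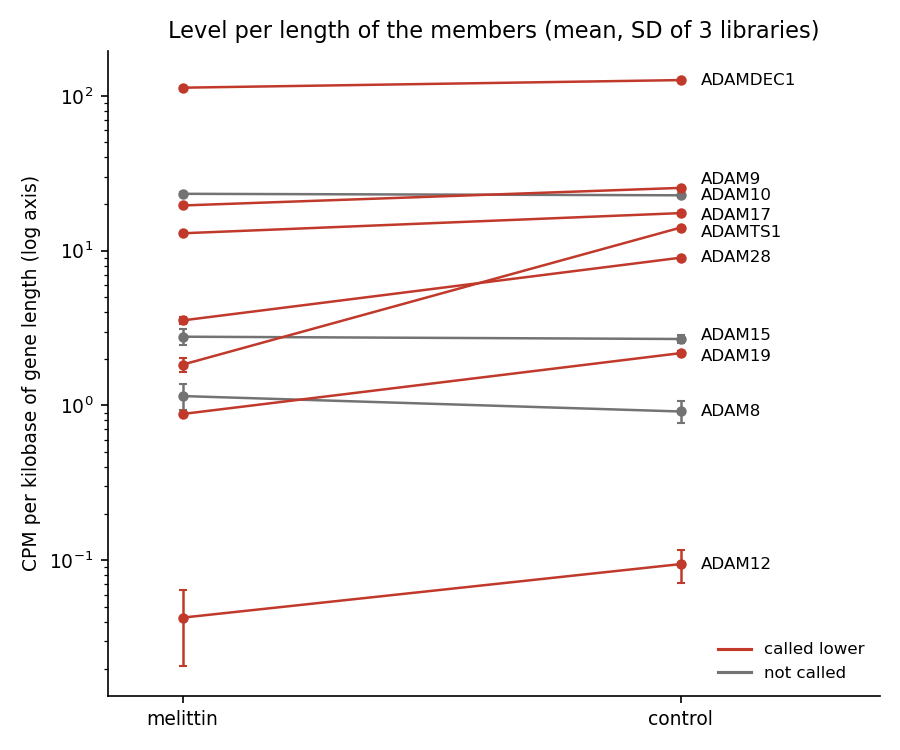
Mean level per length of each gene (CPM per kilobase, log axis; bars are the SD of 3 libraries) with melittin and in controls, joined by a line. ADAMTS1 stands at 1.83 with melittin, under ADAM28 and ADAM15, and at 14.1 in controls, above both, while the lines of ADAM10, ADAM15 and ADAM8 (grey) belong to genes that were not called.

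Summed over the 10 genes, the level was 179.3, 177.7 and 179.5 CPM per kilobase in melittin libraries, against 220.3, 220.6 and 221.7 in control libraries. The 8 genes with the plasma membrane term summed to 64.2 ± 0.298 with melittin and 80.5 ± 0.652 in controls (SD, n = 3). Within these 8, ADAM9, ADAM10 and ADAM17 made up 86.9 ± 0.775% with melittin and 81.5 ± 0.208% in controls. The share of ADAM10 was 35.3, 37.5 and 36.0% in melittin libraries, against 27.8, 28.7 and 28.2% in control libraries. The share of ADAM28 was 5.52 ± 0.269% with melittin and 11.2 ± 0.198% in controls, and that of ADAM17 was 20.2 ± 0.389% with melittin and 21.7 ± 0.282% in controls. Without division by length ADAMDEC1 made up 21.5% of the 10 genes with melittin and 18.9% in controls, against 63.1% and 57.2% per kilobase.

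ADAM proteases are made as inactive precursors, and several proteins carry them to the cell surface and activate them. The lists used for these and the other surrounding genes were drawn up with earlier results of these data known and get no test as lists. The counts of each list stand beside shares over all tested genes of 38.1% higher, 38.3% lower and 76.4% in either direction. Of 12 tested genes of maturation and trafficking, 8 rose and 1 fell, with a median log2 fold change of 0.13. Under total-count scaling 5 rose and 6 fell (median −0.10). After the length correction 9 rose and 1 fell (median 0.32). RHBDF1 and RHBDF2 encode iRhom proteins, which escort ADAM17 out of the endoplasmic reticulum. RHBDF2 measured 129, 127 and 131 CPM in melittin libraries, against 85.6, 82.6 and 81.5 CPM in control libraries. Its log2 fold change was 0.63 (adjusted p = 6.06e-15 by the edgeR quasi-likelihood test), and a link to ADAM17 was not tested. RHBDF1 rose 2.31-fold and FURIN, the protease that removes the precursor part of ADAM proteins, 1.67-fold. PCSK5, a related convertase at 3.09 ± 0.139 CPM with melittin and 5.22 ± 0.935 CPM in controls (SD, n = 3), fell by 0.77 on the log2 scale. TSPAN15, a tetraspanin that guides ADAM10, had 11, 23 and 9 counts with melittin and 3, 1 and 3 counts in controls and was not tested.

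Among 6 inhibitors of metalloproteases 3 rose and 2 fell (median −0.003, and −0.23 under total-count scaling). After the length correction the median was −0.15. TIMP3, the TIMP that inhibits ADAM17, measured 35.6, 33.0 and 33.3 CPM in melittin libraries, against 69.5, 67.6 and 68.2 CPM in control libraries, a 2.02-fold fall (adjusted p = 3.27e-16). A2M, a protease trap in plasma and in macrophage secretions, fell by 0.96 on the log2 scale. TIMP1 and TIMP2 rose 1.52-fold and 1.73-fold. RECK, a membrane-anchored inhibitor, had a called log2 fold change of 0.18, which was −0.05 and not called (adjusted p = 0.425) under total-count scaling.

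Of 9 tested membrane ligands that ADAM proteases release, 5 rose and 2 fell (median 0.36). Under total-count scaling 5 rose and 4 fell (median 0.13), and with DESeq2 1 fell. After the length correction 5 rose and 3 fell (median 0.555). The EGF family ligands AREG and HBEGF, substrates of ADAM17, rose 3.00-fold and 1.80-fold, and CSF1 rose 3.38-fold. HBEGF measured 889, 884 and 906 CPM in melittin libraries, against 492, 505 and 491 CPM in control libraries. TNF, the substrate that gave ADAM17 its first name, fell by 0.35 on the log2 scale. TGFA fell too, with 18, 27 and 9 counts in melittin libraries and 38, 27 and 42 counts in control libraries (adjusted p = 0.0456). Its groups overlapped, and its call was lost with DESeq2 (adjusted p = 0.0856), with limma-voom (0.0525) and without control replicate 1 (0.0902), control replicate 3 (0.223), melittin replicate 1 (0.0563) or melittin replicate 3 (0.225).

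Of 27 tested receptors and adhesion molecules that are shed, 11 rose and 14 fell (median −0.16). Under total-count scaling 10 rose and 16 fell (median −0.39). CSF1R, CD163 and MERTK, all cut by ADAM17, fell 3.07-fold, 7.72-fold and 4.31-fold. CSF1R and CD163 also stand in the macrophage marker list. MERTK, a receptor for dying cells, measured 10.3, 11.7 and 11.7 CPM in melittin libraries, against 47.9, 46.7 and 51.2 CPM in control libraries. TNFRSF1B, CD40 and the decoy receptor IL1R2 rose 1.83-fold, 3.48-fold and 3.85-fold. These are transcript levels, and no shed protein was measured.

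After shedding, the membrane stub is cut by gamma-secretase or by related intramembrane proteases. Of 8 such genes 5 fell and 1 rose (median −0.43). The median was −0.66 under total-count scaling and −0.27 after the length correction, with 6 lower in each. SPPL2A, which cuts the stub of TNF, fell 1.70-fold, and NCSTN, a subunit of gamma-secretase, fell by 0.38 on the log2 scale. SPPL2B rose by 0.47. PSENEN and PSEN2 were at 0.722 and 0.834 CPM with melittin and 1.12 and 0.540 CPM in controls, and were not called.

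**Figure D5:**
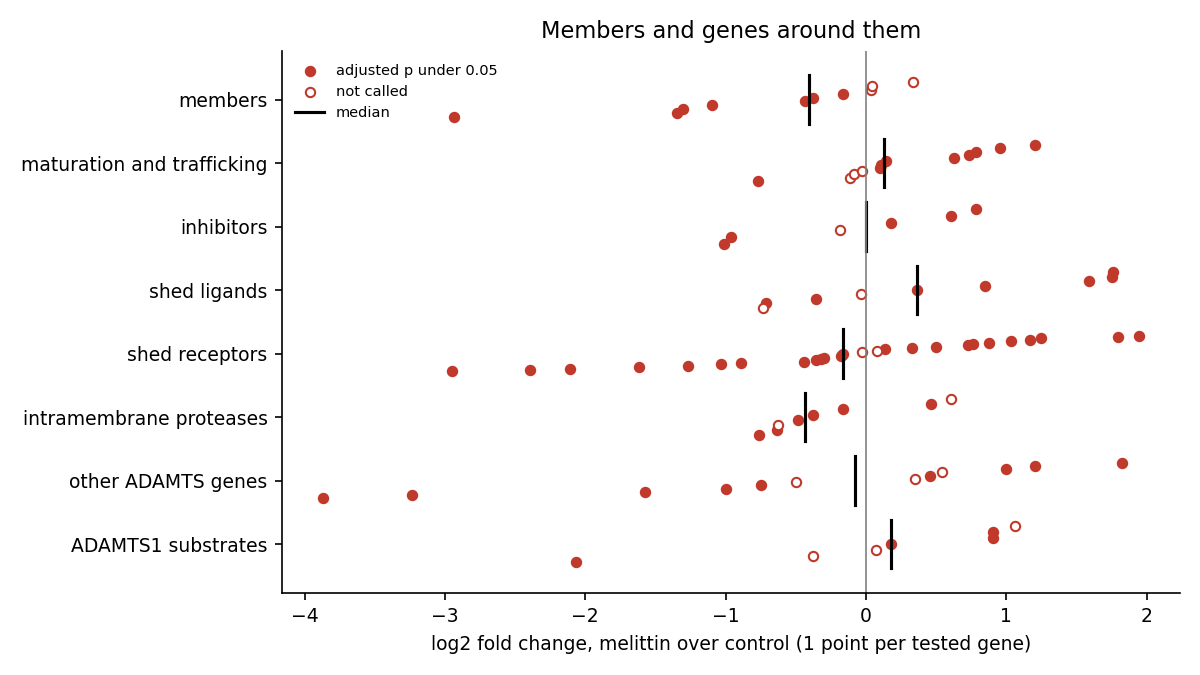
Log2 fold change, melittin over control, of each tested gene in the ADAM and ADAMTS1 group (members) and in lists of surrounding genes, with each list's median as a black line and open points for genes not called. The medians are −0.41 for the members, 0.13 for maturation and trafficking, 0.36 for shed ligands and −0.43 for intramembrane proteases.

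Of the 12 other ADAM genes in the list only ADAM22 and ADAM32 passed the filter. ADAM22, which lacks protease activity, had 51, 85 and 69 counts with melittin and 152, 135 and 114 counts in controls and fell by 0.68 on the log2 scale (adjusted p = 0.000233). ADAM32, the gene next to ADAM9, had 16, 17 and 20 counts with melittin and 4, 7 and 9 counts in controls, a log2 fold change of 1.67 (adjusted p = 0.000821). It passed the filter only through its melittin libraries, which limits what its call can show. Of 23 other ADAMTS and ADAMTS-like genes 12 were tested, of which 4 rose and 5 fell (median −0.08, and −0.31 under total-count scaling). ADAMTS2, which trims procollagen, had the highest CPM of them, without division by length. It fell 1.68-fold, to 122.9 ± 2.72 CPM with melittin, against 205.6 ± 7.07 CPM in controls (SD, n = 3). ADAMTS15 fell by 0.998 on the log2 scale, and ADAMTS8 had 4, 4 and 1 counts with melittin and 31, 32 and 43 counts in controls (adjusted p = 3.10e-07). ADAMTS8 passed the filter on low counts only through its control libraries, which limits what its call can show. ADAMTS6 rose 3.55-fold and ADAMTS7 1.38-fold, and ADAMTS4 had 44, 36 and 29 counts with melittin and 22, 18 and 26 counts in controls (log2 fold change 1.001, adjusted p = 0.00236).

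Of 7 tested substrates of ADAMTS1, 3 rose and 1 fell (median 0.18, and −0.05 under total-count scaling). After the length correction the median was 0.31. VCAN, which encodes versican, measured 10.5, 10.7 and 7.98 CPM in melittin libraries, against 9.79, 9.84 and 8.21 CPM in control libraries, with overlapping groups (log2 fold change 0.07, SE 0.12, adjusted p = 0.599). The membrane proteoglycan SDC4 rose 1.88-fold and the basement membrane protein NID1 1.87-fold, while the secreted guidance factor SEMA3C fell 4.18-fold. THBS1, thrombospondin, had a called log2 fold change of 0.18 that was −0.05 and not called under total-count scaling (adjusted p = 0.0715). ACAN and TFPI2 had 0 counts in every library.

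For each of the 4 genes with at least a 2-fold change, the genes with the most similar profile were sought by the root mean square difference of log2 CPM values over the 6 libraries, centred on the control mean. For ADAMTS1 these were IFIT3 and ANTXR1, at differences of 0.052 and 0.068 (log2 units). SLITRK2 and CARD6 were nearest to ADAM28 (0.035 and 0.037) and DCBLD2 and CREBBP to ADAM19 (0.022 and 0.032). ZNF813 and SMARCE1 were nearest to ADAM12, at 0.179 and 0.190. With 2 groups of libraries that lie close together, this measure mostly compares the size of the change.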

How the data were processed

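RNA was sequenced from 3 melittin and 3 control samples. Chloroform was used for RNA extraction and a NEBNext Ultra II kit for the libraries, per the labels' protocols. The build was GRCh38, per the submitters' processing notes. Not given in the sources used here were the aligner, the counter, its strand setting and the annotation. The deposited table holds raw read counts per gene and FPKM values, which the authors made from these counts, the gene length and the column total (within 2.2e-09). Gene names and coordinates are those of that table. The reference at hand is mouse, so no sequence is printed.

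Counts were tested with edgeR 4.0.16 in R 4.3.3 (filterByExpr, TMM, glmQLFit, glmQLFTest, no replicate block), with Benjamini-Hochberg adjustment over 12029 genes. SE is the log2 fold change, without sign, divided by the square root of F. DESeq2 1.42.0, limma 3.58.1 and other alternatives are given in the closing section. The procedure was also run on simulated counts in which few genes changed. That setting cannot check the scaling or false calls where most genes change, as here. A single count was worth 0.0471 to 0.067 CPM, so low genes are imprecise.

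Libraries of a group differed by more than sampling noise (chi-square per degree of freedom 1.73 to 3.92), so each counted as 1 replicate. The labels name no separate cultures, so p-values measure the spread between these samples, which may be technical.

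The genes and lists were chosen with earlier results of these data known. Named list genes are up to 3 called genes per direction with the smallest adjusted p; 1 gene that this rule selects is not reported here. TSPAN15, PSENEN, PSEN2, VCAN, ACAN, TFPI2, the marker genes and the neighbouring genes were named in addition, after their values were seen. Similar genes are the 2 nearest among named genes with a mean of at least 1 CPM.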

Additional observations from a re-analysis of the deposited data

How the results depend on the processing

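Alternatives were other scalings, filters and tests, a replicate block, and leaving out each library. The calls of ADAM19, ADAM28 and ADAMTS1 held in all 16. Same-numbered melittin and control samples did not deviate together (r from −0.043 to 0.012). With the replicate block 7 genes were lower and 0 higher, and TGFA was not called (adjusted p = 0.0842, edgeR). The number called higher was 1 after the length correction (ADAM10, 0.22) and 0 to 1 with a library left out (ADAM8). Without 1 library ADAM8 was at 0.167 to 0.446, ADAM12 at −1.63 to −0.854 and ADAM15 at −0.042 (without melittin replicate 3) to 0.131. ADAM10 was at −0.198 under total-count scaling and on log2(FPKM + 0.1), and ADAM15 at −0.186 and −0.180. RECK was at −0.049 and −0.052, and THBS1 at −0.053, in these settings. Against 1.5-fold 3 genes were lower, and of all genes 1734 were lower and 3495 were called in either direction. In that test ADAM9 (−0.378), ADAM12 (−1.10), ADAM17 (−0.433) and ADAMDEC1 (−0.162) were no longer called. ADAM12 was not called with DESeq2 (−1.12) and not tested with a minimum of 1 CPM in 3 libraries. Over all genes, 3159 were higher and 6244 lower under total-count scaling, against 4578 and 4612. The causes were not tested. Among recomputed values of other named genes, 694 kept their direction and side of the threshold, 20 lost the call and 4 reversed. Of recomputed list results, 27 counts differed by over 1.5 times and 32 medians by 0.1 or more, while 229 counts and 96 medians did not. Of the levels per kilobase, 14 moved by more than 1 SD in FPKM and 6 did not, and of the shares, 17 moved without division by length and 3 did not. Depth limits ADAM12, with 21 counts in all with melittin and 55 in controls.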

Other observations

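Beside the 10 genes, 116 genes of the table carry the metalloendopeptidase term, and 65 of them were tested. The term is used as annotated and also stands on ADAM22, which lacks protease activity, so not all of them are proteases. This group was chosen after values were seen and gets no test. Of the 65, 27 rose and 22 fell with melittin, with a median log2 fold change of −0.01. Over all tested genes 38.1% rose and 38.3% fell, so these counts of changes of any size lie near the background. At least 2-fold higher were 14 of the 65, and 1146 of all 12029 tested genes. At least 2-fold lower were 8 of the 65, and 1198 of all 12029. The genes named here had the largest changes among those with at least 10 CPM in 1 of the groups. MMP10, a stromelysin, averaged 945.8 CPM with melittin and 145.1 CPM in controls, and ECE1, the endothelin-converting enzyme, 63.1 CPM with melittin and 17.5 CPM in controls. Among those that fell, MMP12, the macrophage elastase, averaged 4.03 CPM with melittin and 33.2 CPM in controls, and IDE, the insulin-degrading enzyme, 15.7 CPM with melittin and 36.1 CPM in controls.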
